A study of Capra hircus with 18 samples.

Results

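*SOCS1* (suppressor of cytokine signaling 1) and *SOCS3* (suppressor of cytokine signaling 3) were described in the blood of goats that had been transported or held in pens. They were taken by gene name from the deposited tables of differentially expressed genes, and make up 2 of the 1557 different genes in these tables. The 30 min table lists both genes among 430, and the 180 min table lists *SOCS3* among 1247. A gene is listed only if it had an unadjusted p-value under 0.05 in the authors' comparison of transported with control goats, so the differences of both genes from the control group are described here without a test. *SOCS1* is not listed at 180 min, and its level in those goats was not analysed here. All animals were uncastrated male Spanish goats, 8 months old, whose feed had been withheld overnight. Of the 18 goats sequenced, 7 were held in pens (control group), 4 were transported for 30 min (about 50 km) and 7 for 180 min (about 200 km). Blood was drawn after transport into tubes that preserve RNA, globin mRNA was removed, and 1 library of poly-A RNA was made per goat. The animals were handled on different days that the labels do not give, so an effect of the day was not tested. Goats are called by the numbers that the labels give them.

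Many cytokines and growth factors act through receptors that carry Janus kinases (JAK). The activated kinases phosphorylate STAT transcription factors, which enter the nucleus and switch on target genes, and the SOCS genes are among these targets. SOCS proteins then bind to the receptor or the kinase through an SH2 domain, block the kinase, and recruit a ubiquitin ligase through the SOCS box, so that they close a negative feedback loop. SOCS1 is best known as a brake on interferon and interleukin-2 family signalling, and SOCS3 as a brake on signalling through gp130, the shared receptor of interleukin-6, and through the receptor for granulocyte colony-stimulating factor in neutrophils.

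In the coordinates of the deposited tables, whose genome build is not given in the sources used here, *SOCS1* (ENSCHIG00000002110) lies on the minus strand of chromosome 25 from 9798307 to 9798966. *SOCS3* (ENSCHIG00000011290) lies on the plus strand of chromosome 19 from 53047025 to 53047714. The gene models are 660 and 690 bases long, as long as their spans on the chromosome, so neither holds an intron. Both lengths are multiples of 3, as for a coding sequence alone. The reads and FPKM (fragments mapped per length of gene model and per depth of the library) given here therefore refer to these models and not to any untranslated part of the transcript.

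The effective library size, the depth by which the authors divided to obtain FPKM, lay between 10443023 and 39473244 in the control group, between 13992574 and 22855051 at 30 min and between 11290309 and 34125715 at 180 min. The normalized count is the read count divided by the size factor of the goat, which the authors computed separately for each table. Goat 10 of the 180 min group stood apart from its group in platelet and neutrophil granule genes, such as *GP1BB* with 20030.0 normalized counts and *LTF* with 5362, so *SOCS3* is given with and without it. Blood leukocyte genes were well covered in the tables. *CSF3R*, the granulocyte colony-stimulating factor receptor of neutrophils, had 15016 to 47222 normalized counts in the control goats, and the T cell receptor subunit gene *CD3E* had 2830.1 to 5434.

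*SOCS1* was low in the control group and higher in every goat transported for 30 min. Its normalized count in the control goats was 33.5 at the lowest, 84.3 at the median and 114 at the highest, from 31 to 132 reads. After 30 min of transport it was 271 in goat 21, 351 in goat 22, 628 in goat 24 and 436 in goat 27, from 327 to 488 reads. The groups did not overlap, and the lowest transported goat had 2.39 times the count of the highest control goat. The 4 transported goats averaged 422 ± 153 (SD) and the 7 control goats 74.3 ± 32.0 (SD), a ratio of 5.68. On the scale of log2(normalized count + 1) the difference was 2.56 (standard error 0.37), the 10th highest of the 430 listed genes. Of all genes in this table, 6.51% were higher at 30 min with no overlap between the groups, but the table was chosen on this contrast. With any 1 goat left out, the difference stayed between 2.34 and 2.74.

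*SOCS3* was the more abundant gene, and its groups overlapped at 30 min. Its normalized count in the control goats was 490.3 at the lowest, 684 at the median and 1140.0 at the highest. At 30 min it was 2121 in goat 21, 1160.0 in goat 22, 1195 in goat 24 and 877 in goat 27. Goats 21, 22 and 24 were above every control goat, goats 22 and 24 only by a small margin, and goat 27 was within the control range. The 4 transported goats averaged 1338 ± 541 (SD) and the 7 control goats 773 ± 244 (SD). On the log2 scale they differed by 0.77 (standard error 0.32). Without goat 21 the difference was 0.52, and after each goat was centred on the median of the listed genes it was 1.46. That centring takes out a fall of 0.69 in the median listed gene of this table, where 29.5% of the genes had a higher mean in the transported goats.

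**Figure D1:**
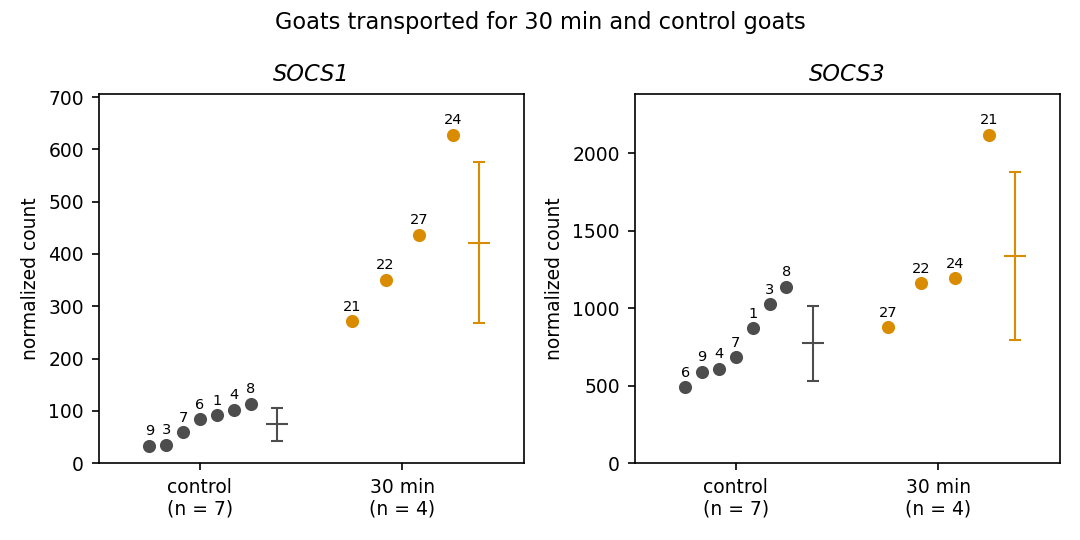
Normalized count (linear axis from 0) of SOCS1 on the left and SOCS3 on the right in the 7 control goats and the 4 goats transported for 30 min. Points are single goats with their numbers, sorted by value within a group, and the bar beside each group is the mean ± SD. All transported goats lie above the control goats in SOCS1, whereas goat 27 lies within the control range in SOCS3.

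The 2 genes did not rank the transported goats alike. Goat 21 had the highest *SOCS3* and the lowest *SOCS1* of its group, and goat 24 had the highest *SOCS1*. Per length of the gene model, *SOCS1* had 2.79 to 8.71 FPKM in the control group (mean 5.93) and 22.5 to 52.8 after 30 min of transport (mean 35.1). *SOCS3* had 59.1 ± 17.4 FPKM (SD, n = 7) and 106 ± 43.0 (SD, n = 4) in the same groups. The ratio of *SOCS3* to *SOCS1* FPKM within a goat was 5.57 to 27.9 in the control group, with a median of 9.60. At 30 min it was 7.47 in goat 21, 3.16 in goat 22, 1.82 in goat 24 and 1.92 in goat 27, so that only goat 21 lay within the control range. Within the 7 control goats, Pearson's r between the log2 normalized counts of the 2 genes was 0.06 (exact permutation test, two-sided, p = 0.877). Spearman's rho was 0.36 (exact permutation test, p = 0.444). No difference between groups enters these values, but both genes were listed by p-values that also depend on the spread among these control goats. Without goats 3 and 9, the farthest from the median of *SOCS1*, r was 0.42 in the other 5 goats (exact permutation test, p = 0.525). A relation between them in untransported goats was not detectable with this number of animals.

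**Figure D2:**
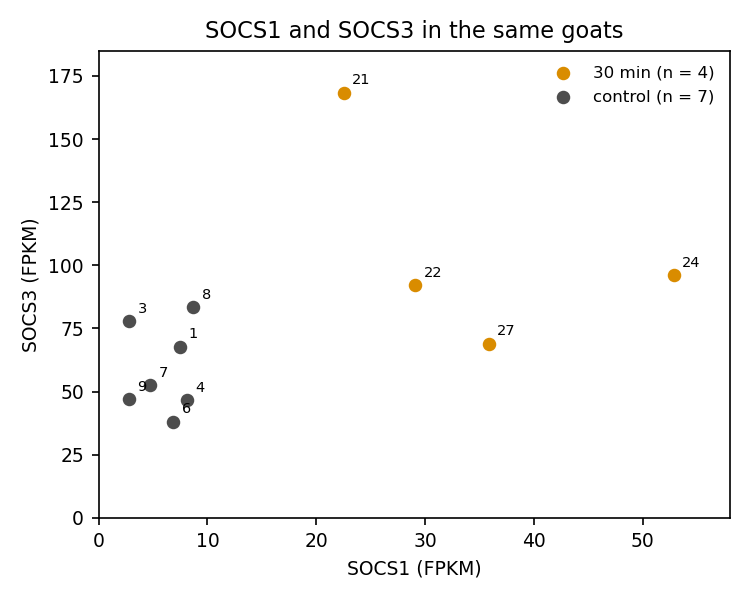
SOCS1 (x axis) against SOCS3 (y axis) in FPKM on linear axes, 1 point per goat with its number. The 4 goats transported for 30 min lie to the right of all 7 control goats, and goat 21 lies above the others with 168 FPKM of SOCS3.

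At 180 min, *SOCS3* was high in 2 goats and close to the control range in the other 5. The normalized count was 4535 in goat 15 and 4246 in goat 16. It was 539 in goat 10, 1050.4 in goat 11, 801 in goat 13, 1352 in goat 14 and 972 in goat 17. The control goats had 592 at the lowest, 812 at the median and 1182 at the highest on the size factors of this table. Goats 14, 15 and 16 were thus above every control goat, goat 10 was below every control goat, and the groups overlapped. In FPKM goat 10 was not below every control goat, with 38.9 against 38.1 in control goat 6.

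The 7 transported goats averaged 1928 ± 1702 (SD) and the 7 control goats 851 ± 225 (SD), a ratio of 2.27, whereas the medians differed by a ratio of 1.29. The log2 difference was 0.78 (standard error 0.47). It was 0.50 without goat 15, 0.51 without goat 16 and 0.13 without both, an alternative chosen after the values were seen. Without goat 10 it was 1.01. With TMM scaling factors (trimmed mean of M-values) computed over the listed genes, the difference was 0.32, and the median difference of all listed genes moved from 0.68 to 0.22. The SD of the log2 values was 1.18 at 180 min and 0.38 in the control group. Of the 749 genes listed at 180 min whose normalized count averaged 100 or more, 20.4% had a larger SD at 180 min than *SOCS3*. Of the genes listed at 180 min, 1.84% were higher in the transported goats with no overlap, and *SOCS3* was not one of them.

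**Figure D3:**
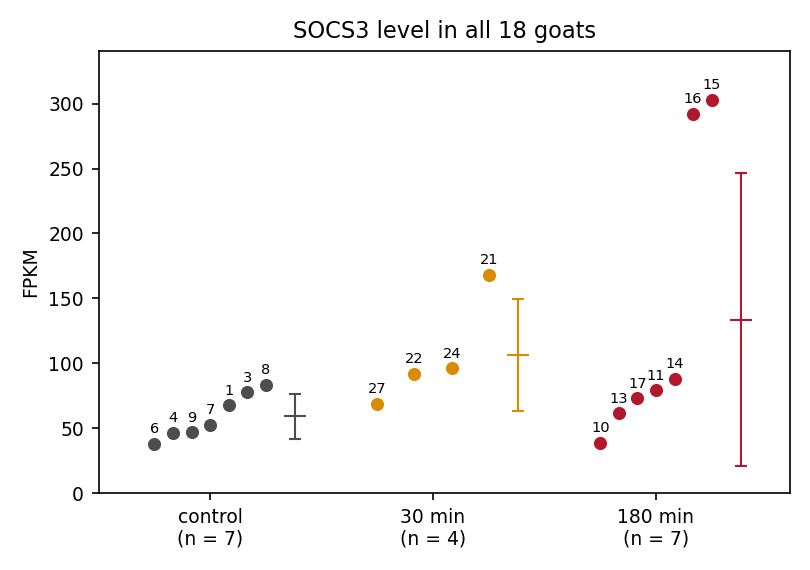
SOCS3 in FPKM (linear axis from 0) in the control, 30 min and 180 min groups. Points are single goats with their numbers, sorted by value, and bars are mean ± SD. Goats 15 and 16 have 303 and 292 FPKM, and every other goat has 168 or less.

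FPKM places the 3 groups on a common scale, since the control values are the same in both tables. *SOCS3* had means of 59.1 FPKM in the control group, 106 at 30 min and 134 ± 113 (SD, n = 7) at 180 min. The medians of 52.6, 94.1 and 79.3 FPKM put the 30 min group highest, so the order of the transported groups depends on the summary used. A direct comparison of 180 min with 30 min was made on counts divided by the effective library size. This contrast listed no gene, but only genes listed at both durations could be compared. Their values in both groups had thus passed the p-value threshold against the same control goats, so the comparison is not free of that choice. Genes listed at 1 duration only, such as *SOCS1*, are left out of it. Of the 7 goats at 180 min, 2 were above every 30 min goat and 2 were below every one. The log2 difference, 180 min minus 30 min, was 0.0073 (standard error 0.50), well within the spread between goats (exact permutation test, two-sided, p = 0.991). The adjusted p over the 120 genes in both tables was 1 (exact permutation test, Benjamini-Hochberg adjustment). The direction turned without goat 15, 16, 22, 24 or 27, with a range of -0.26 to 0.25 over all goats left out in turn. The standard error leaves room for a difference of either sign. Both tables use the same 7 control goats.

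The other genes of the pathway were looked up by name in 7 lists: suppressors, other inhibitors, Janus kinases, STAT factors, cytokine receptors, cytokine ligands and the SOCS box ubiquitin ligase. These hold 130 symbols, some of them alternative names of 1 gene. At 30 min, *SOCS1* and *SOCS3* were the 2 symbols listed, and 0 of the other 128 were. At 180 min, 9 of the other 128 were listed. Genes that are not in the tables have no values here, which does not show that they were unchanged. Listed genes without a gene name could not be matched, which holds for 119 of 430 at 30 min and 308 of 1247 at 180 min. This limit applies to all lists looked up by name, also those below. The listed genes were fitted with limma on log2(normalized count + 1), and at an unadjusted p under 0.05 it called 5 of the 9 higher and 2 lower, where 36.8% of all listed genes were called higher and 25.6% lower. These genes were listed on the same goats, so the calls are not independent evidence.

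Of the inhibitors, *PTPN1*, a phosphatase that removes phosphate from JAK2 and TYK2, rose at 180 min. It had 6948 ± 2928 normalized counts (SD, n = 7) where the control group had 2658 ± 851, and the log2 difference was 1.33 (standard error 0.28). Goats 10 and 15 were its highest, at 11562 and 9602, so the order of the goats differed from that in *SOCS3*. *IRF9*, the DNA-binding part of a factor complex induced by interferon, had 12114 ± 8543 against 6298 ± 3390 and was not called, with 30135 in goat 10.

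Among the receptors, *CSF3R*, whose signalling SOCS3 limits, had 49832 ± 8834 normalized counts at 180 min against 28397 ± 11632, and *CSF2RA*, the receptor subunit for granulocyte-macrophage colony-stimulating factor, had 4503 ± 1984 against 2186 ± 1290.4. Both rose, by 0.90 and 1.10 on the log2 scale. The median difference of the 5 listed receptors was 0.90, and 0.44 with TMM factors over the listed genes. In *CSF3R* and in *CSF2RA*, goats 15 and 16 were the highest of the group, as they were in *SOCS3*. They had 61077 and 58251 in *CSF3R* and 7757 and 5918 in *CSF2RA*. *IL12RB1*, a subunit of the interleukin-12 receptor, fell from 634 ± 172 to 360 ± 77.8, or -0.79 on the log2 scale. *PRLR*, the prolactin receptor, was called lower on few reads, with 0 normalized counts in every goat at 180 min and at most 20.3 in a control goat.

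Of the ligands, *IL10*, a cytokine that signals through STAT3, rose from 7.36 ± 8.71 to 31.0 ± 15.3 normalized counts, or by 2.76 on the log2 scale (standard error 0.83). It was highest in goat 10 with 49.8 and lowest in goat 14 with 11.1. Goats 14 and 17 lay within the control range of 0 to 22.5, and goats 15 and 16, with 36.0 and 32.8, did not stand out. *IL12B*, a subunit of interleukin-12, was not called and owed its mean of 12.9 mostly to goat 11 with 72.7.

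A further list held 42 symbols of genes known as targets of STAT3 or STAT5 in other systems. At 30 min 9 of them were listed, of which limma called 6 higher and 0 lower, where it called 21.6% of all listed genes higher and 24.4% lower. The median log2 difference was 1.12, and -0.92 over all 430 listed genes. *CEBPB*, a transcription factor of myeloid cells, had 4820.2 ± 1705 normalized counts against 1760.1 ± 386. *GADD45A*, a growth arrest gene, had 731 ± 140.4 against 273 ± 68.2. Both had their highest value in goat 21, as *SOCS3* had. The immediate early gene *FOS* had 727 ± 464 against 264 ± 80.1, with its highest value in goat 22, and the adhesion molecule gene *ICAM1* had 220 ± 67.7 against 93.6 ± 32.3.

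At 180 min, 9 of the 42 were listed, and limma called 4 higher and 0 lower, where it called 36.8% of all genes listed at 180 min higher and 25.6% lower, so the share called higher was near that of all listed genes. The median log2 difference was 1.05, and 0.68 over all 1247 listed genes. With TMM factors over the listed genes these medians were 0.59 and 0.22. All 9 had a higher mean, except that *FGL2* turned to -0.0096 with TMM factors. The 4 called were *IL1R2*, the decoy receptor for interleukin-1 (log2 difference 4.57), the transcription factor genes *FOSL2* (1.63) and *CEBPD* (1.59), and *BCL6*, a repressor that binds STAT sites (1.47). In 6 of the 9, goats 15 and 16 were the highest 2 of the group, as in *SOCS3*. Over all listed genes this order of goats was seen in 154 of 1247 genes (12.3%), and in 146 of the 741 genes with a higher mean at 180 min (19.7%). *IL1R2* had 7176 normalized counts in goat 15 and 8701 in goat 16, but also 280 to 2887 in the other 5, all above the control maximum of 239.8. *CEBPB* had 16345 and 10133 in goats 15 and 16 and 347 in goat 10, where *SOCS3* too was lowest. *CEBPD* was 22296 and 19854 in goats 15 and 16, close to the 20822 and 20831 of goats 10 and 11, and lowest in goat 14 with 9821.

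**Figure D4:**
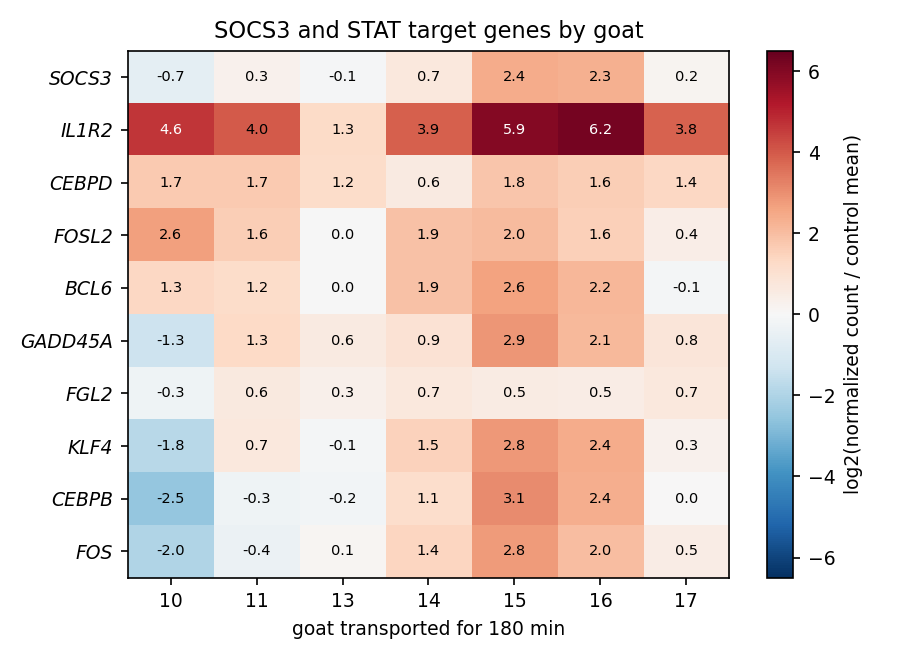
Log2 of the normalized count over the mean of the 7 control goats (colour and printed value) for SOCS3 and the 9 listed genes of the STAT target list in each goat transported for 180 min. SOCS3 reaches 2.4 and 2.3 in goats 15 and 16 and -0.7 in goat 10, and CEBPB, FOS, KLF4 and GADD45A are likewise highest in goats 15 and 16 and lowest in goat 10.

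Interferon target genes, a list of 43 symbols, were listed in 1 case at 30 min and in 5 at 180 min. *MX2*, an antiviral gene, had 1418 ± 1129 normalized counts at 30 min against 766 ± 129 and was not called, with 3073 in goat 21. At 180 min *UBE2L6*, an enzyme that attaches ISG15, was called higher (3414 ± 2456 against 1587 ± 1079), and *IP-10*, the chemokine also named CXCL10, was called lower (24.9 ± 18.9 against 59.7 ± 27.9). *MX2* had 2537 ± 2955 against 853 ± 145 and was not called, with its highest values in goats 14 and 15.

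Genes of several blood cell types moved with the 180 min group. From RNA counts of whole blood alone, a larger share of a cell type cannot be told apart from more RNA per cell. The paper also counted leukocyte types directly, and those counts were not used here. Of 29 neutrophil markers 9 were listed, all with a higher mean, as had 59.4% of all genes listed at 180 min, and limma called 8 of them higher, as it did 36.8% of all these genes. Their summed normalized count ranged from 33391 to 106207 in the control group and from 93807 to 232461 after transport. It was 168519 in goat 15 and 166138 in goat 16, below the 175076 of goat 11, whose *SOCS3* was the median of the group, and the 232461 of goat 10, whose *SOCS3* was the lowest. The members of this list did not order the goats alike. The sum of goat 10 held 71659 from *S100A12*, 51063 from *S100A8* and 32974 from *PGLYRP1*, in each the highest of the group. *CSF3R*, given above, and *VNN2*, a pantetheinase of the neutrophil surface, were highest in goats 15 and 16, as *SOCS3* was. *VNN2* had 51768 and 55788 in these goats, 35586 in goat 14 and its lowest value, 6792, in goat 10. Of 12 monocyte markers 4 were listed at 180 min, where 36.8% of all listed genes were called higher. All 4 were called higher, and their sum ranged from 3274 to 10590 in the control group and from 9615 to 33433 after transport. It was highest in goats 15 and 16 (33433 and 26358). Of 25 T cell markers 9 were listed, all with a lower mean and 8 called lower, as were 25.6% of all genes listed at 180 min, with sums from 9254 to 17959 in the control group and from 4704 to 10166 after transport. Of 22 B cell markers 2 were listed at 180 min, where 25.6% of all listed genes were called lower. These were *MS4A1* and *BTLA*, both called lower. Their sum ranged from 4892 to 8751 in the control group. It was lowest in goats 15 and 16, at 2203 and 2992, and 4022 to 6097 in the other 5 goats. The listed natural killer cell marker, *NKG7*, was called higher, with 1992 to 3305 at 180 min where the control group had 1053 to 2252, and goats 15 and 16 lay inside the range of the others. Of 14 platelet markers 4 were listed, all with a higher mean, as had 59.4% of all genes listed at 180 min. Limma called 3 of them higher, as it did 36.8% of all these genes. The sum of the 4 ranged from 168 to 3269 in the control group. After transport it was highest in goat 10, at 20295, and 519 to 3078 in the other 6 goats. None of these listed neutrophil, monocyte and T cell markers was at 0 in any goat. Of 17 red cell markers 1 was listed in both tables, *CA2*, the gene of carbonic anhydrase 2. It ranged from 232 to 492 normalized counts in the control group and from 96.1 to 1086 after 180 min, with its highest values in goats 15 and 16 (1086 and 1071) and its lowest in goat 10, as in *SOCS3*. The other 16, among them the globin genes and *ALAS2*, were not found by name among the listed genes and have no values here. The part of these cell types in the *SOCS3* values was not tested. At 30 min, 1 neutrophil marker was found by name, 0 monocyte markers and 0 T cell markers, where 119 of the 430 listed genes carry no name. All 6 of the 22 B cell markers that were listed there had a lower mean, as had 303 of all 430 genes listed at 30 min. Their median log2 difference was -0.77, and -0.92 over all these genes. Limma called 1 of the 6 lower, where it called 24.4% of all genes listed at 30 min lower. *MS4A1* and *CD79A* turned to a higher mean after centring on the median listed gene. The sum of the 6 B cell markers ranged from 9103 to 28976 in the control group and from 8692 to 12195 after transport. Their part in the *SOCS1* difference was not tested either.

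The genes most like each member in their differences between goats of a group were ranked by Pearson's r of the log2 normalized counts, as deviations from the group means, over all genes with a name. For *SOCS1* over 11 goats and 310 genes these were *PDE6H* (0.89), *UBTF* (0.81) and *NRARP* (0.74). *PDE6H* and *NRARP* had at most 13 and 21 reads in any goat. They were at 0 in every transported goat, so they differed between control goats only. For *SOCS3* in the same table the most alike were *CA2* (0.89), *STRC* (0.75) and *FETUB* (0.74), the latter pair with at most 18 and 11 reads. *FETUB* was at 0 in every transported goat, and *STRC* in all but goat 21. *CA2*, the red cell marker described above, had 675 normalized counts in goat 21, 499 in goat 22, 430.0 in goat 24 and 290.2 in goat 27, so the order of its first and last goat was that of *SOCS3*.

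For *SOCS3* at 180 min, over 14 goats and 938 genes, the most alike were *AKIRIN2* (0.95), *PCDH9* (0.87) and *CEBPB* (0.86). *PCDH9* had at most 11 reads and was at 0 in every control goat. *AKIRIN2*, a nuclear cofactor of NF-kappa B target genes, had 1634 normalized counts in goat 15, 1407 in goat 16 and 495 to 900.1 in the other 5. Without goats 15 and 16 these values of r were 0.77, 0.36 and 0.55 over 12 goats. They are the highest of many and are a description only.

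**Figure D5:**
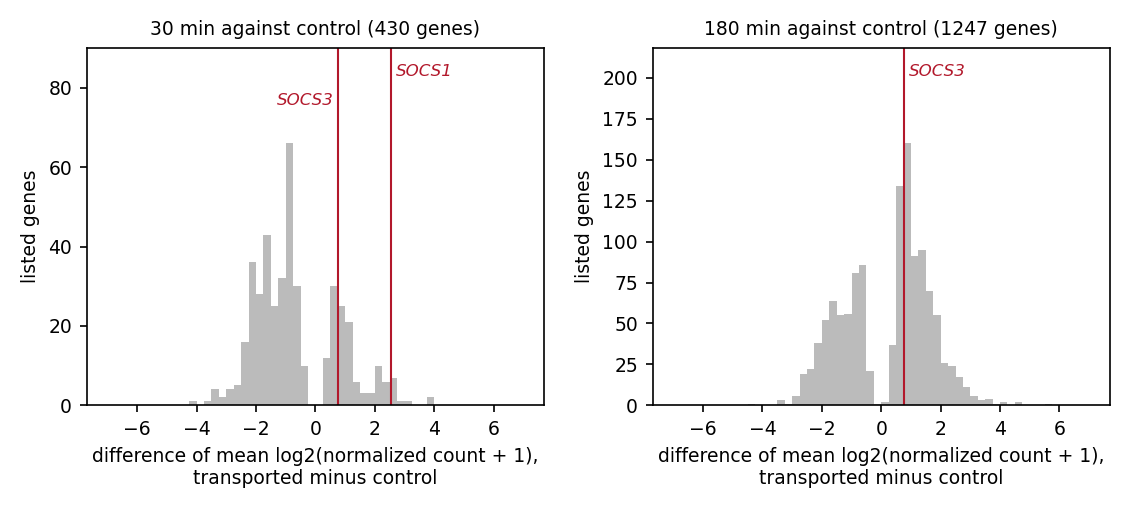
Number of listed genes (y axis) by the difference of mean log2(normalized count + 1), transported minus control (x axis), in the 30 min table on the left and the 180 min table on the right, with SOCS1 and SOCS3 as vertical lines. SOCS1 at 2.56 lies in the upper tail at 30 min, and SOCS3 at 0.77 and 0.78 lies among the bulk of the higher genes in both. The gap around 0 reflects that only genes past the p-value threshold are listed.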

How the data were processed

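Blood RNA of 18 goats was sequenced in 1 library each. Per the paper's methods, reads were cleaned with fastp and mapped to the goat genome with HISAT2. The genome build and the counting tool are not given in the sources used here. The deposited counts are whole reads per gene. The deposited normalized counts (the signal) are these counts divided by 1 size factor per goat, computed by the authors for each table. The paper's methods name TMM factors in edgeR for the scaling, and both edgeR and DESeq2 for the differential analysis. Which of these gave the size factors is not stated in the sources used here. The deposited FPKM are counts per gene length and effective library size. The deposited log2 fold changes and p-values are the authors' DESeq2 results. They were not used, except to check that every listed gene has a p-value under 0.05.

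*SOCS1* and *SOCS3* were found by gene name. The members, gene lists and tests were chosen with earlier results of these data known. Lists are general knowledge. Members were described with no test against control. The 180 min and 30 min goats were compared with an exact permutation test on log2(scaled count + 1), adjusted over all genes in both tables. Listed genes were fitted with limma 3.58.1 on log2(normalized count + 1), because the tables hold called genes only and give no basis for the scaling and dispersion of a count model. edgeR 4.0.16 and DESeq2 1.42.0 were alternatives, as were other pseudocounts (0.1 and 10), a minimum mean of 10, other scalings and leaving out each goat. Genes named beside the members were every listed gene of the 7 pathway lists, the 4 with the largest difference of each target or marker list (of the marker lists, only those a statement needs are given), and the 3 most like each member. Other genes were chosen after their values were seen. Genes that this rule covers but the text does not name are not reported here, though the counts of the lists include them. Markers of NK cells, red cells and platelets were found under the symbols looked up for 1, 1 and 0 genes at 30 min and 1, 1 and 4 at 180 min. The NK cell list held *FASLG*, and the gene listed at 30 min as *FasL* was not matched to it. Its log2 difference was 1.60, whereas that of the NK cell marker counted at 30 min, *NCR3*, was -0.80. Within a group, the share of genes with over 20 reads whose counts were identical in a pair of goats was at most 1.61%. Labels do not say more of replicates than that they are separate goats. The fits were tested on simulated data. R 4.3.3 and Python 3.11.15 were used.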

Additional observations from a re-analysis of the deposited data

Results flagged for a closer look

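In the 4 to 7 goats of each group, the highest and the lowest value of a gene were compared with the rest of the group (Dixon's criterion, 95%). This covered *SOCS1*, *SOCS3* and a part of the other genes named in the text. It did not cover, for example, *CEBPB*, *FOS* or *AKIRIN2* at 180 min. Chance flags about 1 in 20 groups, and 15 of 96 were flagged here, none of them in *SOCS1* or *SOCS3*. The criterion uses the gap between an extreme value and the next one, so it misses 2 high goats that lie close together. This holds for *SOCS3* at 180 min, with 4535 in goat 15, 4246 in goat 16 and 1352 in goat 14, the next. The log2 difference of *SOCS3* from the control group was 0.78, and 0.13 without goats 15 and 16. At 180 min, 7 of the 15 flagged values are of goat 10, the goat with the lowest *SOCS3*. Its values of *GP1BB* (20030.0 normalized counts), *CLEC1B* (67.6), *SELP* (126), *LTF* (5362), *PGLYRP1* (32974) and *IRF9* (30135) stood far above the other 6 goats, and *CD5* was far below them (193.9). The others at 180 min are *CD163* in goat 15 (14681), one of the goats with high *SOCS3*, and *IL12B* in goat 11 (72.7). At 30 min it was *FOS* in goat 22 (1417). Among the control goats, *MX2* was lowest in goat 1 (556). The highest were *LTF* in goat 9 (1093), *PRLR* in goat 3 (20.3), *CLEC1B* in goat 1 (4.51) and *IL12B* in goat 1 (2.25), the latter on a few reads.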

How the results depend on the processing

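No paired analysis was possible because the goats of the 3 groups carry different numbers. The difference of *SOCS1* and of *SOCS3* from the control group kept its sign under every alternative run. Subtracting the median listed gene of each goat moved *SOCS1* to 3.25 and *SOCS3* at 30 min to 1.46. This median fell by 0.69 at 30 min and rose by 0.19 at 180 min, and it is taken from genes listed for their change. With each goat left out, *SOCS1* lay between 2.34 and 2.74, and *SOCS3* between 0.52 and 0.95 at 30 min and between 0.50 and 1.01 at 180 min. The comparison of 180 min with 30 min in *SOCS3* ranged from -0.26 to 0.25 with each goat left out (exact permutation tests, p = 0.652 to 0.975) and was 0.16 with the authors' size factors (exact permutation test, p = 0.803). Scaled by effective library size, the r of *SOCS1* and *SOCS3* in the control goats was -0.0093. Over the listed genes, limma called 198 at 30 min (93 higher, 105 lower) and 778 at 180 min (459 higher, 319 lower). With each goat left out it called 105 to 221 and 625 to 762, with 105 without goat 24 and 109 without goat 21. With the authors' size factors, edgeR called 304 at 30 min, and DESeq2 called 393 at 30 min and 1212 at 180 min. Centring gave 126 higher and 9 lower at 30 min and 311 higher and 426 lower at 180 min, and TMM factors in edgeR gave 245 higher and 480 lower at 180 min. Without goats 15 and 16 limma called 612. The cause of these moves was not tested.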

Other observations

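Listed genes within 500 kb of the members were looked up in the coordinates of the tables. Around *SOCS3* on chromosome 19, none was listed at 30 min and 3 were at 180 min. *PGS1*, an enzyme of cardiolipin synthesis that ends 16.5 kb away, averaged 5110.1 ± 2173 normalized counts (SD) in the 7 transported goats and 2102.5 ± 1114 (SD) in the 7 control goats, and the log2 difference was 1.33 (standard error 0.36). *DNAH17*, a dynein heavy chain gene whose model overlaps that of *PGS1*, had 312 ± 167 against 138 ± 104, and *LGALS3BP*, 413 kb away, had 2939 ± 926 against 1777 ± 681. Around *SOCS1* on chromosome 25, 3 genes were listed at 30 min, of which *LITAF* (936 ± 142 against 491 ± 200.4) and *SNN* (309.5 ± 92.2 against 196 ± 53.0) had higher means and *DEXI* (92.9 ± 37.6 against 187 ± 72.6) a lower one. These differences are from the contrast that listed the genes and were not tested.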
